A study of Homo sapiens with 6 samples.

Results

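The genes described here are 8 genes of MHC class I antigen presentation, HLA-B, HLA-C, HLA-E, B2M, TAP1, TAP2, TAPBP and NLRC5, of the 60612 genes listed for each library. They were chosen by name as class I heavy and light chains, parts of the peptide-loading complex and the transactivator of these genes, and their Ensembl identifiers were matched to GENCODE symbols. RNA was sequenced from HCT116, an established human colorectal carcinoma cell line, after infection with the control lentivirus LV-NC (3 libraries) or with LV-SNORA28, a lentivirus for overexpression of the H/ACA small nucleolar RNA SNORA28 (3 libraries). Both groups therefore share the line and a lentiviral infection, and they differ in the insert. The comparison asks which messages change with SNORA28 overexpression. The sources used here do not say whether the 3 libraries of a group came from separate infections or cultures, so a p-value measures the spread between these libraries, which may be technical.

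MHC class I molecules display short peptides from inside the cell at its surface, where CD8 T cells and natural killer cells read them. A heavy chain pairs with the light chain beta-2-microglobulin in the endoplasmic reticulum, the TAP transporter pumps peptides in from the cytosol, and tapasin holds the empty molecule at the transporter until a peptide fits. NLRC5 works at the promoters of these genes together with the RFX, CREB and NF-Y factors that sit on their X and Y boxes, while interferons act through STAT and IRF factors. Colorectal tumours can lose parts of this machinery, and the class I genes are therefore often examined in lines derived from them.

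On GRCh38, 6 of the 8 genes lie on chromosome 6, in or near the MHC region. HLA-C (ENSG00000204525) spans 31268749 to 31272130 on the minus strand, HLA-B (ENSG00000234745) spans 31353872 to 31367067 on the minus strand, and HLA-E (ENSG00000204592) spans 30489509 to 30494194 on the plus strand. TAP2 (ENSG00000204267, 32821833 to 32838739), TAP1 (ENSG00000168394, 32845209 to 32853816) and TAPBP (ENSG00000231925, 33299694 to 33314284) are all on the minus strand of the same chromosome. B2M (ENSG00000166710) is on chromosome 15 at 44711358 to 44718851 and NLRC5 (ENSG00000140853) on chromosome 16 at 56989485 to 57083531, both on the plus strand.

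RefSeq promoter windows, from 250 bases before to 50 after an annotated start, were matched for 6 of the 8 genes, all but HLA-E and NLRC5. The 200 bases before the start are shown for the classical heavy chains and their light chain, which carry the letters of both an X2 and a Y box. TAPBP, which carries neither, was added after its values were seen to lie opposite to those of B2M. Neither B2M nor TAPBP passed the test below, and HLA-C, with both letters, had a log2 fold change of -0.09. A link between these letters and the fold changes was not tested. The stretches lie on GRCh38.p14 at chr6:31357180-31357379 (minus strand) for HLA-B, chr6:31272093-31272292 (minus strand) for HLA-C, chr15:44711317-44711516 (plus strand) for B2M and chr6:33314079-33314278 (minus strand) for TAPBP. Each is written 5′ to 3′ on the strand of the gene, with matches to the X2 core TGACG, the Y box CCAAT, the interferon element core GAAANNGAA, the gamma-interferon element TTCNNNGAA and the NF-kB consensus, on either strand, in capitals.
HLA-B: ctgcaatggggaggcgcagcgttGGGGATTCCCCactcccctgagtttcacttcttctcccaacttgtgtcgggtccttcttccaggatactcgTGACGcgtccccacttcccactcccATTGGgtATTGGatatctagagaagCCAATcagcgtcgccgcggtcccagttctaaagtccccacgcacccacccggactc
HLA-C: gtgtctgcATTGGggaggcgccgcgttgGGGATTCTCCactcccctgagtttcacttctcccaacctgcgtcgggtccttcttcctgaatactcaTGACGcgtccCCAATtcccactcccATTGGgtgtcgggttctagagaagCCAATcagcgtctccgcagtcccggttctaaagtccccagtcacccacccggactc
B2M: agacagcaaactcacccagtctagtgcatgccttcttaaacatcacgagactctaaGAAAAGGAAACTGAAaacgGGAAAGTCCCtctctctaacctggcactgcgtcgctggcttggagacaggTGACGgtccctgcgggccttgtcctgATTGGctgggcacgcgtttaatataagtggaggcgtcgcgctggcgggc
TAPBP: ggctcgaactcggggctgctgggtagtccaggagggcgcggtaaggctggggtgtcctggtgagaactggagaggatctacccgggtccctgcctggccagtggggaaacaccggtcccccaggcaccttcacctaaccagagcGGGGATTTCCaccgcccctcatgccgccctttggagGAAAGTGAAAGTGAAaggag

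HLA-B and HLA-C matched the X2 core at bases -106 to -102 and -105 to -101 before the start and matched the Y box on the strand of the gene at -56 to -52 in both. On the opposite strand, the Y box matched at -81 to -77 and -74 to -70 in HLA-B, and at -80 to -76 and -192 to -188 in HLA-C. HLA-C also matched it at -95 to -91 on its own strand. B2M matched the X2 core at -75 to -71 and the Y box on the opposite strand at -49 to -45. TAP2 matched the X2 core at -35 to -31 without a Y box. In 1 of the 2 windows of TAP1 the Y box matched on the opposite strand at -249 to -245, without an X2 core. Of all 35116 RefSeq windows of this length, 24.6% held the X2 core, 34.6% the Y box and 8.69% both. The interferon element core, in 8.11% of all windows, matched in B2M, TAP2, TAPBP and 1 of the 2 windows of TAP1. Overlapping pairs of this core lay in B2M at -144 to -130, in that window of TAP1 at -133 to -119 and in TAPBP at -20 to -6. The other window of TAP1 held only the gamma-interferon element, which 7.66% of all windows hold. The NF-kB consensus, in 11.3% of all windows, matched in HLA-B, HLA-C, B2M, TAPBP and TAP1. In HLA-B this match overlapped itself, since the letters can be read from more than 1 base and on both strands. A match describes the letters of the window and is not a binding site.

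**Figure D1:**
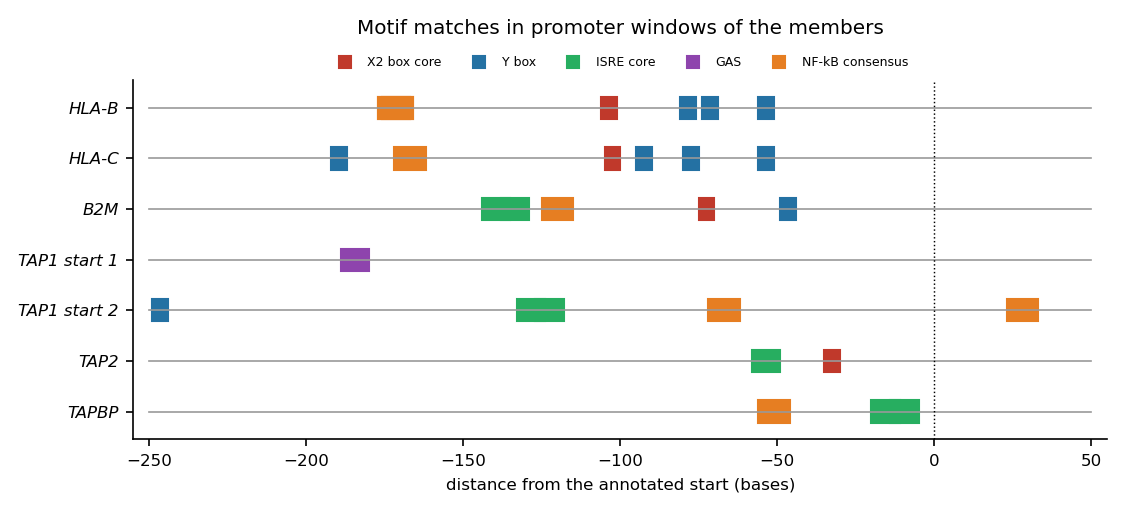
Positions of motif matches in the promoter windows of 6 genes, with the distance in bases from the annotated start on the x axis and 1 line per window, 2 of them for TAP1. Coloured boxes stand for the 5 motifs on either strand, and X2 and Y boxes occur together in HLA-B, HLA-C and B2M.

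The libraries were checked before the genes were compared. SNORA28 had 0.92, 0 and 0.64 FPKM in LV-NC, against 15.01, 13.66 and 15.2 FPKM after LV-SNORA28, so the labels fitted the insert. FPKM counts the fragments of a gene per unit of transcript length and per mapped fragment of its library, and the mapped totals are unknown. Between 24231 and 25771 genes per library were above 0. In LV-NC, 42.7% to 47.7% of the summed FPKM came from mitochondrial genes, and 35.9% to 38.3% in LV-SNORA28, and the part of this difference in the results below was not tested beyond the scalings named with them. Of 8 epithelial markers, CEACAM5 was at 0 and VIL1 at or near 0 in all libraries, while the summed level was 762 to 850 FPKM. The 8 leukocyte markers summed to 0.07 to 0.58 FPKM per library, although leukocytes carry abundant class I messages. In bulk RNA, fewer cells expressing a gene and less RNA per cell cannot be told apart.

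The class I messages were among the abundant messages of these cells, and their regulator was not. In LV-NC, HLA-C was highest at 71.2 ± 4.20 FPKM (SD, n = 3), followed by HLA-E at 43.6 ± 2.32, HLA-B at 35.3 ± 2.54 and B2M at 33.3 ± 0.906 FPKM. TAPBP had 15.2 ± 0.866, TAP2 11.7 ± 0.775 and TAP1 8.96 ± 0.258 FPKM, and NLRC5 stayed below 1 FPKM. Averaged over all 6 libraries, HLA-C stood at percentile 96.4 of the 12076 genes tested by mean level and TAP1 at 69.2. HLA-B and B2M, next to each other in this order, overlapped between libraries in both groups, whereas the libraries of HLA-C, HLA-E and HLA-B stayed apart. TAPBP, TAP2 and TAP1 were also apart in LV-NC, but in LV-SNORA28 TAP2 overlapped with both of the others. FPKM is a value per transcript length, so these levels can be compared between genes, within the limits of reads that HLA genes share. HLA heavy chains are highly polymorphic close copies of each other, and how reads matching several of them were assigned is not given in the sources used here, so their values are uncertain.

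Among the class I genes, HLA-E alone passed the test between LV-NC and LV-SNORA28. Of the 8 genes, 7 reached a mean of 1 FPKM and were tested with all others in limma on log2(FPKM + 1). HLA-E was higher in LV-SNORA28 at an adjusted p below 0.05, none was lower, and 6 were not called. This share of 14.3% rests on a single gene and stands beside 8.91% of all genes tested that were called, of which 6.81% of all genes were higher and 2.10% lower. The groups did not overlap for HLA-E, B2M and TAPBP, 3 of 7, beside 35.1% of all genes tested. The median log2 fold change of the 7 genes was 0.10, and that of all genes tested was 0.09.

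**Figure D2:**
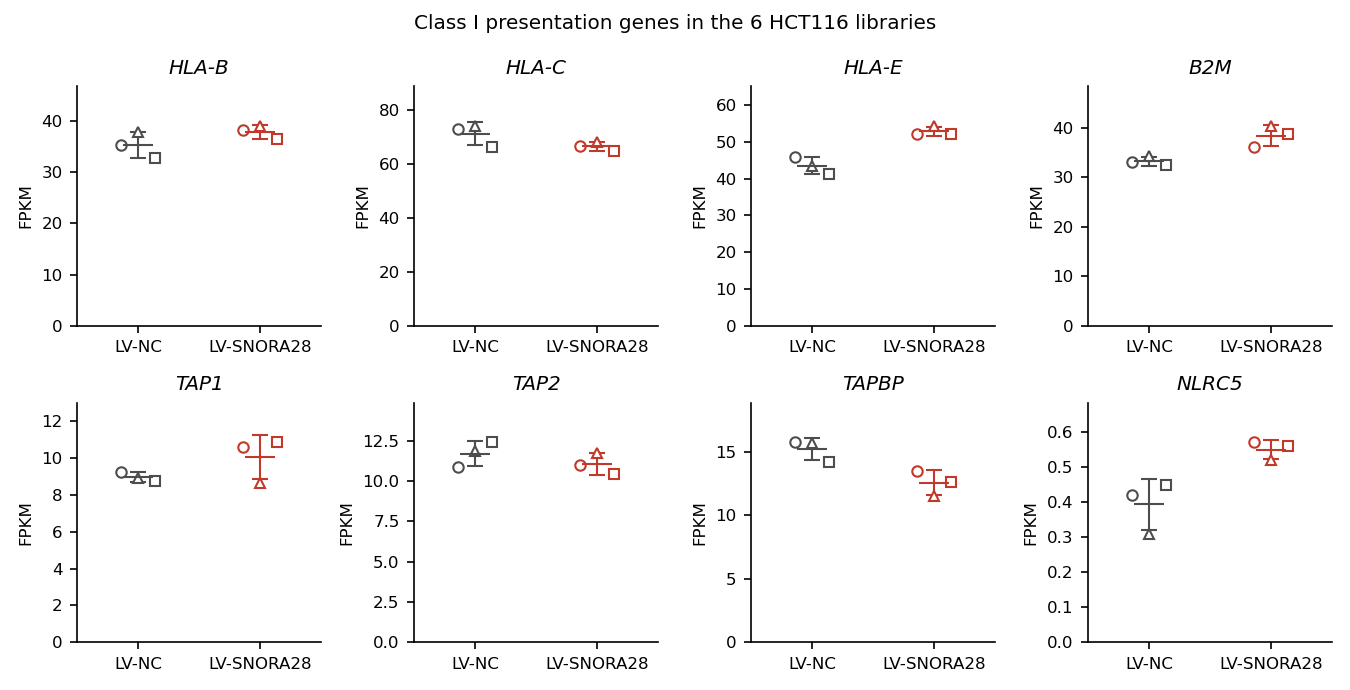
FPKM of the 8 genes (y axes from 0) in the LV-NC and LV-SNORA28 libraries, with circles, triangles and squares for replicates 1, 2 and 3 and bars for the mean ± SD of 3 libraries. The groups are apart for HLA-E, B2M, TAPBP and NLRC5 and overlap for HLA-B, HLA-C, TAP1 and TAP2.

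HLA-E encodes a nonclassical heavy chain that presents peptides cut from the leader sequences of other class I chains and is the ligand of the CD94-NKG2A receptor of natural killer cells. Its LV-NC libraries had 45.99, 43.29 and 41.37 FPKM, and its LV-SNORA28 libraries had 52, 54.28 and 52.08 FPKM. Every LV-SNORA28 library was above every LV-NC library. The mean rose from 43.6 ± 2.32 to 52.8 ± 1.29 FPKM (SD, n = 3), 1.21-fold. On the log2(FPKM + 1) scale the change was 0.27 (SE 0.06, 95% confidence interval 0.13 to 0.42; limma adjusted p = 0.0431). The call was close to the threshold and held in 4 of 14 alternative analyses, with adjusted p-values from 0.0221 to 0.142 and the same direction in all 14. It was lost when any of the libraries other than LV-NC replicate 1 was left out, with the highest adjusted p in limma, 0.142, without LV-SNORA28 replicate 2.

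HLA-B and HLA-C encode classical heavy chains, which show peptides to CD8 T cells and also engage killer cell receptors. HLA-B had 35.33, 37.83 and 32.76 FPKM in LV-NC and 38.14, 38.94 and 36.34 FPKM in LV-SNORA28. The lowest LV-SNORA28 library was below the highest LV-NC library, and the log2 fold change of 0.10 (95% confidence interval -0.07 to 0.27) did not pass the test, with an adjusted p of 0.414 in limma. HLA-C had 73.13, 74.07 and 66.37 FPKM in LV-NC and 66.76, 68.15 and 64.77 FPKM in LV-SNORA28. Here the LV-NC libraries 1 and 2 were above all others and LV-NC 3 lay among the LV-SNORA28 libraries. The log2 fold change of HLA-C was -0.09 (95% confidence interval -0.25 to 0.06) with an adjusted p of 0.382 in limma, and its sign turned when FPKM was scaled to TPM (0.053).

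The makeup of the heavy chain messages was compared as shares within a library, which do not move with its scaling. HLA-E took 29.8%, 27.9% and 29.4% of the FPKM sum of HLA-B, HLA-C and HLA-E in LV-NC and 33.1%, 33.6% and 34.0% in LV-SNORA28. These groups were apart by 4.55 percentage points between means, with an exact two-sided permutation p of 0.1, the smallest that 3 against 3 libraries allow. This share was examined after the values of HLA-E had been seen. The share of HLA-B was 23.5% ± 0.772 in LV-NC and 24.1% ± 0.301 in LV-SNORA28 (SD, n = 3, exact permutation p = 0.4), with overlapping groups. The sum of the 3 chains was 150.0 ± 8.28 FPKM in LV-NC and 157 ± 4.10 FPKM in LV-SNORA28 (SD, n = 3, exact permutation p = 0.3). Its libraries overlapped as well. The exact permutation p of this sum was 0.1 after scaling to TPM and 0.6 after scaling to the nuclear FPKM sum.

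B2M encodes beta-2-microglobulin, the light chain without which most class I heavy chains do not reach the surface. Its libraries had 33.17, 34.25 and 32.45 FPKM in LV-NC and 36.21, 40.37 and 38.7 FPKM in LV-SNORA28. All LV-SNORA28 values lay above all LV-NC values. The means were 33.3 ± 0.906 and 38.4 ± 2.09 FPKM (SD, n = 3), a ratio of 1.15 between means, and the log2 fold change was 0.20 (SE 0.06, 95% confidence interval 0.05 to 0.35). Its limma adjusted p of 0.0959 did not pass the test, and it passed in 1 of 14 alternatives, after scaling to TPM (adjusted p = 0.0295). Relative to the 3 heavy chains, B2M stood at a ratio of 0.222 ± 0.00820 in LV-NC and 0.245 ± 0.0120 in LV-SNORA28 (SD, n = 3, exact permutation p = 0.2). This ratio overlapped, since LV-NC 3 and LV-SNORA28 1 had nearly the same value.

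**Figure D3:**
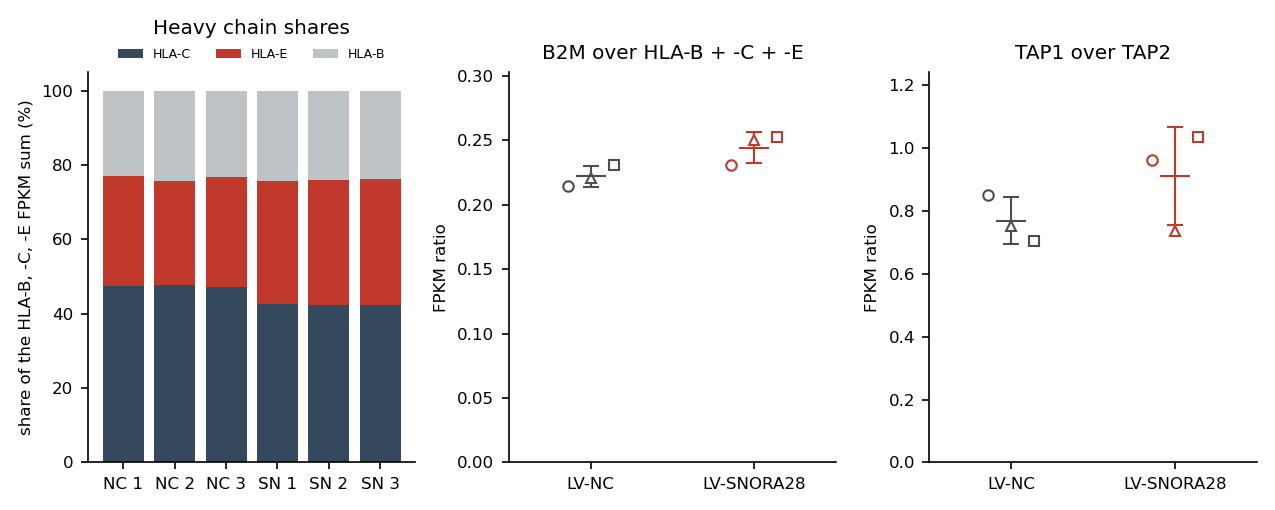
Left, stacked shares (%) of HLA-C, HLA-E and HLA-B in their FPKM sum in each library, NC for LV-NC and SN for LV-SNORA28; middle and right, the FPKM ratios of B2M to the 3 heavy chains and of TAP1 to TAP2, as in the plot of levels, with the mean ± SD of 3 libraries. The HLA-E share is 27.9% to 29.8% in LV-NC and 33.1% to 34.0% in LV-SNORA28, and both ratios overlap between the groups.

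TAP1 and TAP2 encode the subunits of the peptide transporter, which works as a heterodimer. TAP1 had 9.24, 8.92 and 8.73 FPKM in LV-NC and 10.58, 8.65 and 10.82 FPKM in LV-SNORA28, where replicate 2 was the lowest library of all and the other two were the highest. Its log2 fold change was 0.14 (95% confidence interval -0.08 to 0.36) with an adjusted p of 0.374 in limma. TAP2 had 10.87, 11.85 and 12.4 FPKM in LV-NC and 10.99, 11.76 and 10.45 FPKM in LV-SNORA28. The groups were interleaved, and the log2 fold change of -0.07 (95% confidence interval -0.25 to 0.11) had an adjusted p of 0.569 in limma and changed sign under scaling to TPM (0.066). The ratio of TAP1 to TAP2 was 0.769 ± 0.0743 in LV-NC and 0.911 ± 0.156 in LV-SNORA28 (SD, n = 3, exact permutation p = 0.3). The annotated span of TAP1 lies wholly within that of PSMB9 on the opposite strand, which was listed at 0.8 to 1.11 FPKM, and whether counting used strand is not given in the sources used here.

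TAPBP encodes tapasin, which bridges the transporter and the empty class I molecule and favours tightly bound peptides. Its message stood at 15.73, 15.71 and 14.22 FPKM in LV-NC, against 13.52, 11.53 and 12.65 FPKM in LV-SNORA28. Every LV-SNORA28 library was below every LV-NC library. The means were 15.2 ± 0.866 and 12.6 ± 0.998 FPKM (SD, n = 3), a ratio of 0.826, and the log2 fold change was -0.26 (SE 0.08, 95% confidence interval -0.45 to -0.07). Its adjusted p of 0.0933 in limma missed the threshold, as it did in all 14 alternatives (0.0643 to 0.378), and the direction was the same in each of them.

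NLRC5, the transactivator of class I genes, was near the lower end of what was measured. It had 0.42, 0.31 and 0.45 FPKM in LV-NC and 0.57, 0.52 and 0.56 FPKM in LV-SNORA28, so the groups did not overlap at a level where the precision is unknown. In limma without a filter on low values, the log2 fold change was 0.15 (95% confidence interval -0.03 to 0.34) with an adjusted p of 0.437.

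**Figure D4:**
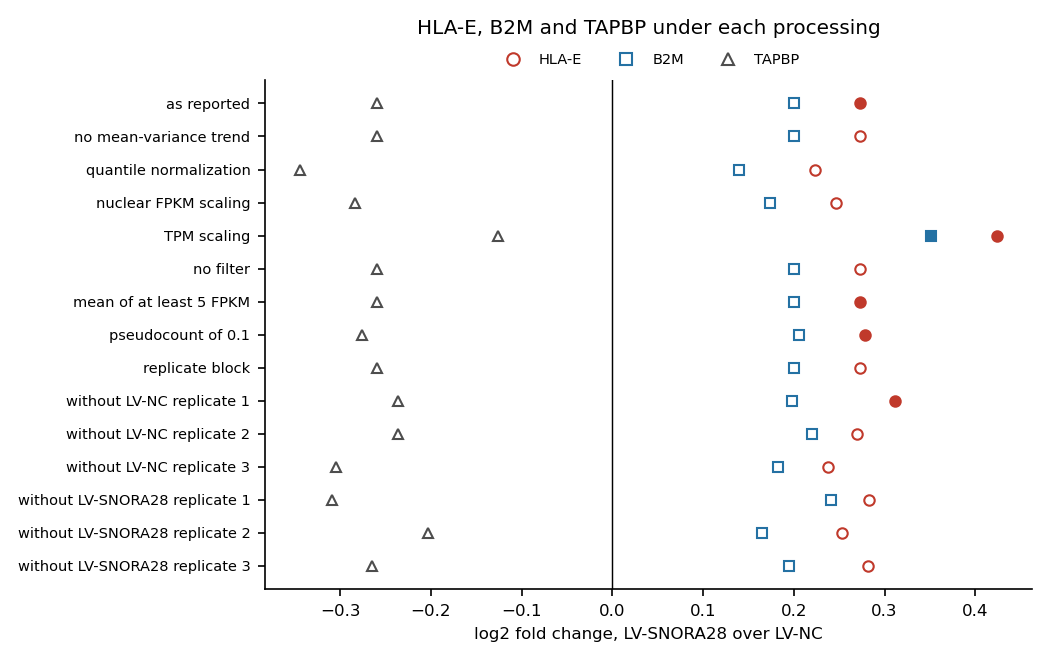
Log2 fold change (x axis, LV-SNORA28 over LV-NC) of HLA-E, B2M and TAPBP in the reported analysis and in 14 alternatives (y axis), with filled symbols where the limma adjusted p was below 0.05. HLA-E and B2M stay above 0 and TAPBP below it, HLA-E is filled in the reported analysis and in 4 alternatives, B2M in 1, and TAPBP in none.

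Across the 6 libraries the genes did not follow a single profile. On the log2 scale, HLA-E and B2M varied most alike (Pearson r = 0.91), whereas B2M and TAPBP (r = -0.88) and TAP1 and TAP2 (r = -0.83) went opposite ways. Group means were not removed, so the difference between the groups of HLA-E, B2M and TAPBP, described above, enters their r. With the mean profile of the 7 tested genes, HLA-B had an r of 0.92 and TAP2 an r of -0.58. This mean contains each of these genes, which raises r. It ran only from -0.071 in LV-NC 3 to 0.032 in LV-SNORA28 1 on the log2 scale. These correlations describe 6 libraries in 2 groups, and any shared steps of processing can also enter them. The genes outside the list most like the mean profile were ENTREP3 (r = 0.99), PYURF (0.99), MIR222HG (0.99), HOXA4 (0.99) and BTBD6 (0.98), and none of the 5 was called between the groups (limma adjusted p-values 0.287 to 0.427). They were picked as the highest r among the genes tested, which favours high values over 6 libraries. Each had its lowest level in LV-NC 3, where the mean profile was lowest too.

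A list of 52 further genes of class I presentation and its control was read from the same limma analysis, and its called genes lay on both sides. Of these, 36 were tested, 3 were higher, 4 were lower and 29 were not called. The called share was 19.4%, beside 8.91% of all genes tested. The median log2 fold change was 0.00, and the groups did not overlap for 17 of the 36 (47.2%, beside 35.1% of all genes tested). These 17 include HLA-DRA, whose mean lay below the filter of 1 FPKM in LV-NC (0.71 FPKM, against 1.49 FPKM in LV-SNORA28). CALR and RFX5 were called in all 14 alternatives, and with each library left out their adjusted p-values in limma stayed at or below 0.0342 and 0.0372. The other 5 depended on the scaling or on single libraries. Scaled to TPM, MICB, PDIA3 and ERAP1 were no longer called (limma adjusted p 0.163, 0.0681 and 0.0752), while HLA-F, IFNGR1 and PSMB7 were, as was HLA-DRA, which passed the filter only through its level in LV-SNORA28. IFNAR1 was not called with quantile normalization or nuclear scaling (0.0776 and 0.0548), and PSMB6 was called under all of these. With 1 library left out, ERAP1 (adjusted p 0.0535 to 0.112) and IFNAR1 (0.0678 to 0.11) were never called. MICB was called only without LV-NC replicate 1 (0.0442 to 0.114), PSMB6 only without LV-NC replicate 3 (0.038 to 0.111), and PDIA3 only without LV-NC replicate 1 or 3 (0.0417 to 0.0667).

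**Figure D5:**
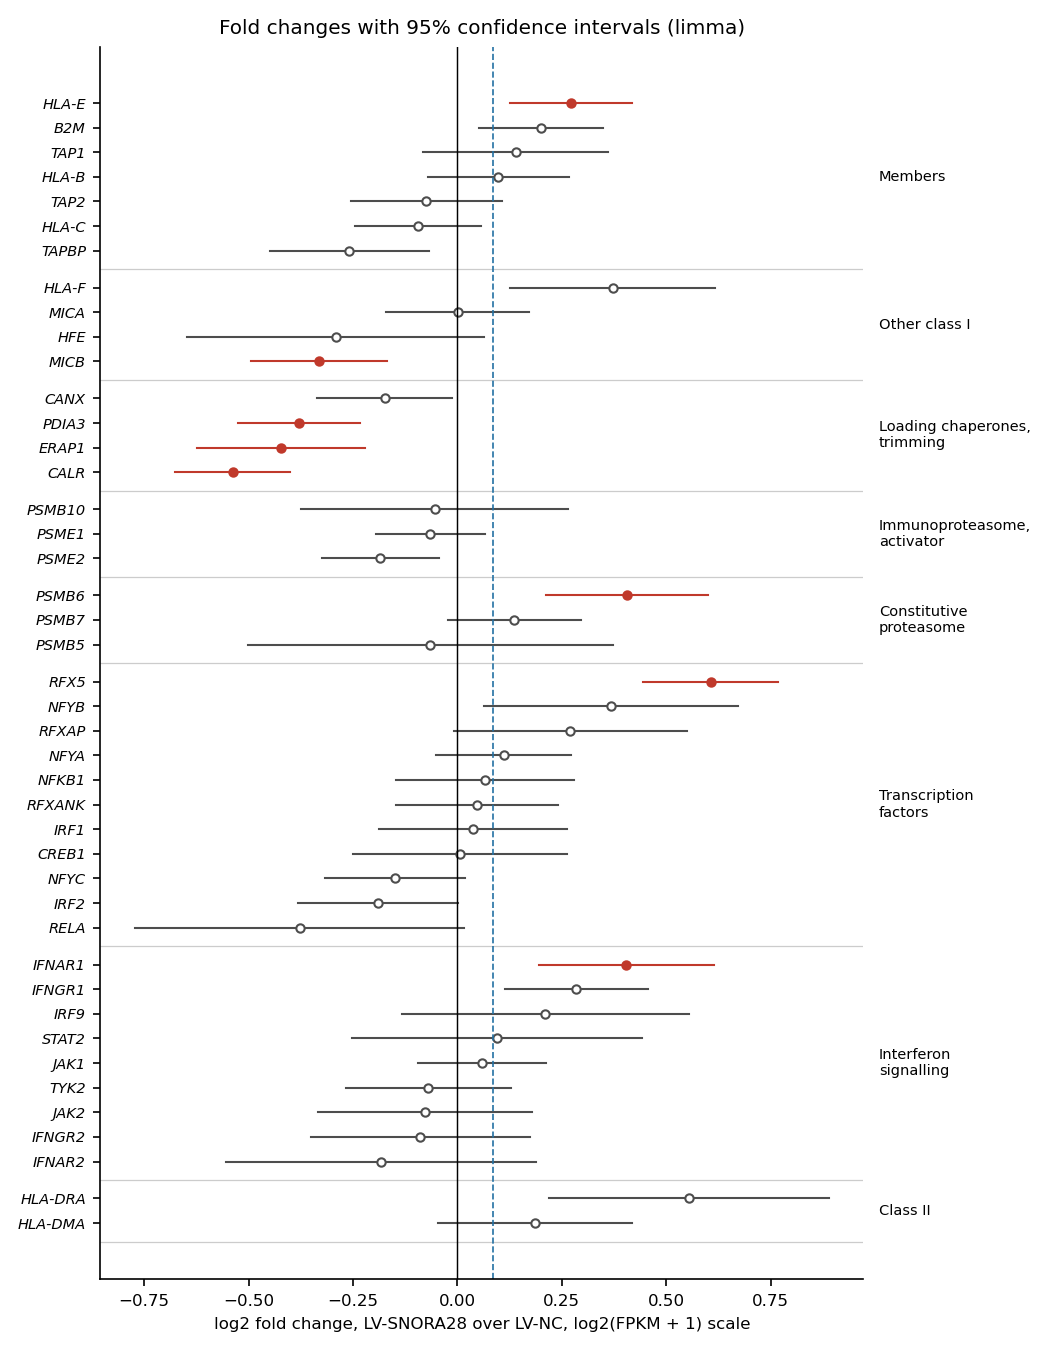
Log2 fold changes (x axis, LV-SNORA28 over LV-NC, log2(FPKM + 1) scale) with 95% confidence intervals for the 7 tested genes and the 36 tested related genes, grouped by role. Filled red symbols passed the limma test, the solid line is 0 and the dashed line the median of all genes tested (0.09). CALR, PDIA3, ERAP1 and MICB passed on the lower side, and RFX5, IFNAR1 and PSMB6 on the higher side.

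Partners of tapasin in peptide loading were among the genes that fell. Of 6 chaperones and trimming enzymes, 4 were tested and 3 fell, with a median log2 fold change of -0.40, beside 2.10% of all genes tested that were lower. Since the list was chosen with earlier results of these data known, this count is a description and not a test of enrichment. After scaling to TPM, CALR alone of the 3 was called. CALR, the lectin chaperone calreticulin that holds glycosylated heavy chains in the loading complex, had 420.23, 436.79 and 452.47 FPKM in LV-NC and 290.68, 302.14 and 307.85 FPKM in LV-SNORA28. The groups were far apart, at -0.54 on the log2 scale (SE 0.06, limma adjusted p = 0.00634). PDIA3, the disulphide isomerase ERp57 that pairs with tapasin, fell from 162 ± 6.29 to 125 ± 5.51 FPKM (SD, n = 3; log2 fold change -0.38, limma adjusted p = 0.0184). ERAP1, an aminopeptidase that trims peptides in the endoplasmic reticulum, fell from 2.24 ± 0.172 to 1.42 ± 0.118 FPKM (SD, n = 3; log2 fold change -0.42, limma adjusted p = 0.0319). CANX, which encodes the chaperone calnexin, was not called, with a log2 difference of -0.17 and a limma adjusted p of 0.154, although its groups did not overlap. These chaperones serve glycoproteins in general and are not particular to class I molecules.

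Among 8 other heavy chains and class I-like molecules, 4 were tested and 1 was called. This share of 25% rests on 1 gene, beside 8.91% of all genes tested that were called. MICB, a stress-induced ligand of the NKG2D receptor, fell from 20.8 ± 1.16 to 16.3 ± 0.751 FPKM (SD, n = 3; log2 fold change -0.33, limma adjusted p = 0.0356). Its close relative MICA had 8.23 FPKM on average in both groups. HLA-F, a nonclassical heavy chain, had 1.55, 1.75 and 1.23 FPKM in LV-NC and 2.13, 2.42 and 2.17 FPKM in LV-SNORA28. No library of one group reached into the other, and the difference of 0.37 on the log2 scale (95% confidence interval 0.13 to 0.62) missed the threshold (limma adjusted p = 0.0723). HLA-G was listed at 0 in all 6 libraries.

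In the proteasome, which makes the peptides, messages of the constitutive subunits were above those of the interferon-induced subunits. PSMB8, an interferon-induced subunit, was listed at 0.08 to 0.21 FPKM and PSMB9 at 0.8 to 1.11 FPKM, both below the filter, while their constitutive counterparts PSMB5 and PSMB6 were at 47.5 FPKM or more in every library. PSMB10, the remaining interferon-induced subunit, passed the filter at 4.96 to 7.21 FPKM, against 79.65 to 95.39 FPKM for its counterpart PSMB7. Of the 3 tested immunoproteasome and activator genes none was called, beside 8.91% of all genes tested that were called. The largest differences were those of PSME2 (log2 fold change -0.18, limma adjusted p = 0.10) and PSME1 (-0.06, adjusted p = 0.484), which encode the activator PA28. With quantile normalization PSME2 was called as lower (limma adjusted p = 0.0408). PSMB6 rose from 52.2 ± 4.90 to 69.3 ± 2.85 FPKM (SD, n = 3; log2 fold change 0.41, limma adjusted p = 0.0322), and PSMB7 was not called at 0.14.

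Of 12 transcription factors of class I promoters, 11 were tested and 1 rose. This share of 9.09% stands beside 8.91% of all genes tested that were called. RFXAP, not called, passed the filter only through its level in LV-SNORA28 (mean 0.997 FPKM in LV-NC, 1.42 FPKM in LV-SNORA28). RFX5, the X-box-binding subunit of the RFX complex, had 11.04, 9.83 and 10.18 FPKM in LV-NC and 15.59, 16.75 and 16.5 FPKM in LV-SNORA28. The groups were well apart, by 0.61 on the log2 scale (SE 0.07, limma adjusted p = 0.00696). Its partner RFXANK was not called (log2 fold change 0.05, limma adjusted p = 0.754). HLA-B, HLA-C and B2M, whose windows hold both X2 and Y letters, had log2 fold changes of 0.10, -0.09 and 0.20. HLA-E had no window, and a link between RFX5 and the class I genes was not tested. RELA, an NF-kB subunit, had the next largest difference, -0.38 with an adjusted p of 0.193 in limma. LV-NC 3 had 8.59 FPKM, whereas LV-NC 1 and 2 had 13.09 and 13.76 FPKM, and without LV-NC replicate 3 its adjusted p in limma was 0.0271 with a log2 fold change of -0.57.

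All 9 genes of interferon receptors and signalling that were examined passed the filter, and 1 rose. This share of 11.1% stands beside 8.91% of all genes tested that were called. IRF9, not called, passed the filter only through its level in LV-SNORA28 (mean 0.867 FPKM in LV-NC, 1.15 FPKM in LV-SNORA28). IFNAR1, a chain of the type I interferon receptor, rose from 3.61 ± 0.176 to 5.12 ± 0.558 FPKM (SD, n = 3; log2 fold change 0.40, limma adjusted p = 0.0391), a call lost with quantile normalization and nuclear scaling. IFNGR1, the ligand-binding chain of the interferon gamma receptor, had 7.07, 6.17 and 6.2 FPKM in LV-NC and 8.22, 8.07 and 8 FPKM in LV-SNORA28. Its groups were apart, but the difference of 0.28 on the log2 scale (95% confidence interval 0.11 to 0.46) missed the threshold with a limma adjusted p of 0.0579. IRF1, an interferon-induced factor that acts on class I promoters, was not called, with a log2 fold change of 0.04.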

How the data were processed

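Poly(A)-selected RNA was sequenced as stranded paired-end libraries, per the labels. The authors deposited 1 table of FPKM values per library, with at most 2 decimals. The submitters' processing notes name cutadapt 1.9, HISAT2 2.2.1, StringTie 2.1.6, DESeq2, edgeR and hg38. The annotation release, the handling of shared reads and the mapped totals are not given in the sources used here. Read depth is therefore unknown, no counting interval was attached, and precision was taken from the spread of 3 libraries per group. FPKM is a relative unit, so that a shift in abundant transcripts moves every other gene.

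Groups came from the sample titles. Symbols and coordinates were taken from GENCODE release 44. Genes averaging 1 FPKM or more over the 6 libraries (12076 genes) were fitted on the log2(FPKM + 1) scale with limma 3.58.1 in R 4.3.3 (trended eBayes, two-sided, Benjamini-Hochberg adjustment over all genes tested). A fold change on this scale understates the change of low genes. Ratios within a library were compared with exact two-sided permutation tests in Python 3.11.15. The limma step was checked on simulated data. No library was a copy of another, since the most similar pair had different values in 26342 genes.

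The 8 genes, the lists and the rule for naming genes were chosen with earlier results of these data known. The rule took the 8 genes, SNORA28, the called genes and the 2 largest fold changes of each related list, and the 5 genes most like the mean profile. A further 2 genes of the planned related lists were left out of the lists and their counts and are not reported here. Other genes named were chosen after their values were seen: HLA-G, MICA, CANX, PSMB5, PSMB8, PSMB9, PSMB10, RFXANK, RFXAP, IRF1, IRF9, CIITA, CD74, and the class I pseudogenes. Alternatives were no trend, quantile normalization, scaling to the nuclear FPKM sum or to TPM, no filter, a minimum of 5 FPKM, blocking on the replicate number, a pseudocount of 0.1 and each library left out in turn. Whether replicate numbers pair the libraries is not given in the sources used here.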

Additional observations from a re-analysis of the deposited data

How the results depend on the processing

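Of 110 alternative fold changes of single genes, 97 kept their direction and their side of the threshold, 10 lost a call, 1 gained one and 2 changed sign. Both sign changes came with scaling to TPM, at 0.053 for HLA-C and 0.066 for TAP2, neither of them called. TPM scaling also moved the median over all genes tested from 0.09 to 0.24 (log2), and quantile normalization moved it to 0.00. The 1076 calls over all genes became 2030 with TPM, 397 without a filter, where 32761 genes entered the adjustment, and 279 to 628 when a library was left out. The higher genes were 76.4% of calls as reported, 54.6% with quantile normalization and 93.3% with TPM. Among the 8 genes, the call of HLA-E was lost and 0 remained without a trend, with quantile normalization, with nuclear scaling and without a filter (limma adjusted p 0.0611, 0.103, 0.0682 and 0.0872), 2 were called with TPM, and 0 to 1 when a library was left out. The cause was not tested. The 7 calls among related genes became 2 without a filter and 2 to 6 when a library was left out. With the replicate number as a block there were 510 calls over all genes, 0 among the 8 genes (HLA-E, adjusted p = 0.0792 in limma) and 2 among related genes. The numbers do not pair the libraries, since same-numbered deviations correlated at only -0.04, 0.09 and 0.01 across genes. No shares or ratios changed direction in any alternative. The exact tests of 3 against 3 libraries cannot pass the threshold. Since the depth is unknown, the precision of NLRC5, PSMB8 and other genes below 1 FPKM could not be judged beyond the spread of the libraries.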

Other observations

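MHC class II genes, which present peptides to CD4 T cells and share the RFX and NF-Y factors with class I, were mostly near 0. Of 9 class II genes, 2 passed the filter and neither was called, beside 8.91% of all genes tested that were called. HLA-DRA had 1.05, 0.49 and 0.59 FPKM in LV-NC, against 1.58, 1.59 and 1.3 FPKM in LV-SNORA28. Its mean was 0.71 FPKM in LV-NC and 1.49 FPKM in LV-SNORA28, so it passed the filter of 1 FPKM only through the group where it is high, and its fitted difference is not read as support for a change. HLA-DMA, which edits the peptides bound by class II, had 2.16 ± 0.311 FPKM in LV-NC and 2.59 ± 0.156 FPKM in LV-SNORA28 (SD, n = 3), a log2 difference of 0.19 (limma adjusted p = 0.266). CIITA, the class II counterpart of NLRC5, was listed at 0.03 to 0.19 FPKM, and CD74, the invariant chain, at 0.04 to 0.12 FPKM.

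Class I pseudogenes were looked up after the values were seen, because they can take reads from the functional heavy chains. HLA-H had 9.44 ± 0.317 FPKM in LV-NC and 9.76 ± 0.561 FPKM in LV-SNORA28 (SD, n = 3), about the level of TAP1, and it was not called (adjusted p = 0.723 in limma). HLA-J, HLA-K and HLA-L were listed below 1 FPKM in every library. How many of these reads belong to functional heavy chains was not tested.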
